A study of Rubus occidentalis with 14 samples.

Results

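The genes described here were 150 genes of black raspberry (Rubus occidentalis) fruit whose normalised counts rose at least about 2-fold from stage 1 to stage 2 and then stayed within a narrow band to stage 5. They were chosen from the measured values of all 33253 genes in the table. For each gene the stage means were taken as log2(mean + 10). A gene qualified if its stage 2 mean was at least 100 normalised counts, if the highest and lowest of its stage 2 to 5 values differed by at most 0.7, and if the lowest of those 4 values lay at least 1 above stage 1. The distance of the lowest later stage above stage 1 is called the score. In all 151 genes qualified, and the 150 with the highest scores were kept. Rise and steadiness are therefore properties of the choice, and the values that follow on them are descriptions without a test.

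Black raspberry fruit is an aggregate of small drupelets on one receptacle, each holding a seed within a stony layer and fleshy tissue around it. During ripening the flesh softens, loses green colour and acidity, and accumulates sugars and anthocyanins, the pigments that colour the ripe fruit. A gene that rises once early in this course and then holds its level differs from one with a passing peak and from one that goes on rising to the ripe fruit.

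Fruit of 1 breeding selection, NC 349, grown at a research station in North Carolina, was sampled at 5 stages that the labels number 1 to 5, and no other treatment separated the groups. Poly(A) RNA of whole fruit gave 14 libraries, 3 each for stages 1, 2, 3 and 5 and 2 for stage 4. The labels call them biological replicates and do not say how plants or fruits were divided among them, so calls rest on differences among these libraries, and some of that spread may be technical. In stages 1, 2, 3 and 5 the titles of replicates 2 and 3 carry one code and that of replicate 1 another, with no word on what the code marks, so replicates 2 and 3 may be less independent of each other than of replicate 1. Totals ran from 7576338 to 39938265 reads per library, and 1 read was worth 0.319 to 2.76 normalised counts. Because whole fruit was measured, more cells of a type and more RNA per cell cannot be told apart. Identifiers stand in the table without gene names, so no function is given for any gene here, and the fruit label could not be set against marker genes.

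Few of these genes were off before the rise. None lacked reads in stage 1, and 149 of the 150 had reads in all 3 stage 1 libraries. The stage 1 mean was at or above 100 normalised counts in 119 genes (79.3%), between 10 and 100 in 29 and under 10 in 2. The median gene stood at 368 normalised counts in stage 1, beside a median of 230 over the 19234 genes tested, and at 1230 in stage 2, beside 197. The genes tested needed only 10 normalised counts in 2 libraries, so the list's minimum of 100 in stage 2 enters this gap. With such stage 1 levels, "raised at stage 2" describes the list better than "switched on". The mean over stages 2 to 5 was 3.78-fold the stage 1 mean in the median gene, with quartiles of 2.84 and 5.45. Scores lay between 1 and 2 in 106 genes, between 2 and 3 in 35 and above 3 in 9.

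**Figure D1:**
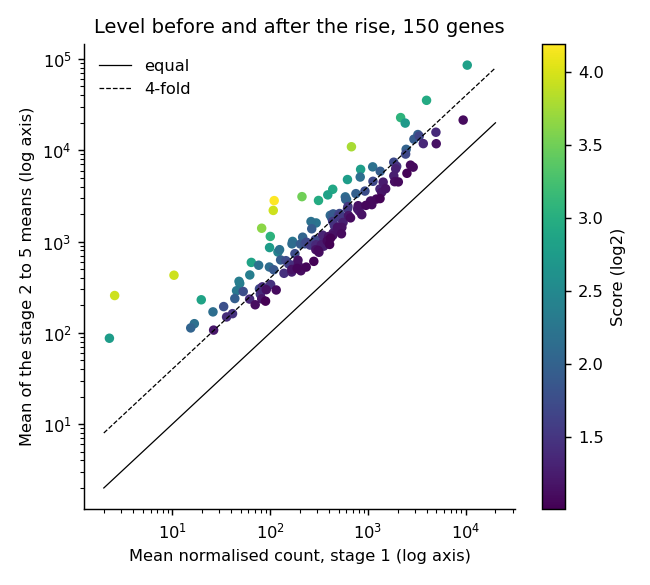
Each of the 150 points is 1 gene, with its stage 1 mean on the x axis and the mean of its stage 2 to 5 means on the y axis (normalised counts, log axes), coloured by score. The solid line marks equal levels and the dashed line a 4-fold difference; most genes lie to the right of 100 on the x axis, and only 2 lie left of 10.

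The highest score, 4.19, belonged to Ro02_G25455. Its normalised counts were 139, 99.5 and 91.1 in stage 1 replicates 1, 2 and 3 and 3102, 1861 and 1581 in stage 2. It stood at 3853, 3323 and 2321 in stage 3, at 2715 and 2089 in stage 4, and at 3163, 1496 and 5826 in stage 5. The stage 1 libraries lay far below all others, while stage 5 alone spanned the whole range of the later stages. The change from stage 1 to stage 2 was 4.26 ± 0.40 (limma SE) on the log2(value + 1) scale.

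Ro02_G35420 came next with a score of 3.95. It had 106, 101 and 116 normalised counts in stage 1, 2399, 1549 and 1485 in stage 2, and 2593, 2797 and 1778 in stage 3. Stage 4 held 2320 and 1593, and stage 5 held 2239, 915 and 4717. As in Ro02_G25455, stage 5 replicate 2 was the lowest and stage 5 replicate 3 the highest of the 11 later libraries. Steadiness in these 2 genes is therefore a property of stage means, and the stage 5 means of 3495 ± 2184 and 2624 ± 1930 (SD, n = 3) are loosely fixed.

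The most abundant gene by count was Ro03_G19792, which also had the highest stage 1 mean of the list. It went from 11429, 9192 and 10285 normalised counts in stage 1 to 78788, 77002 and 83656 in stage 2. Stage 3 held 72880, 72286 and 70504, stage 4 held 88716 and 89421, and stage 5 held 94376, 103710 and 108013. Replicates were close in every stage, and the stage 5 libraries were all above those of stages 2, 3 and 4. Its stage 2 mean was 7.75-fold that of stage 1 and its score 2.80.

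Ro07_G33294 followed in abundance, with 4872, 4188 and 2810 normalised counts in stage 1 and 37533, 29824 and 28340 in stage 2. Later libraries lay between 24879 in stage 3 replicate 3 and 59837 in stage 5 replicate 3. The later stages overlapped one another throughout, and all stood above stage 1. A contrasting case of high abundance was Ro02_G15473, with the second-highest stage 1 mean. It held 8728, 9688 and 9678 normalised counts in stage 1, 22051, 22639 and 22977 in stage 2, and 20804, 19780 and 19719 in stage 5. Its score of 1.10 ranked 135 of 150.

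The 2 genes nearest to absent in stage 1 were Ro03_G12833 and Ro04_G36856. Ro03_G12833 had 2.55, 2.97 and 1.32 normalised counts in stage 1, from 14 reads over the 3 libraries, and 114, 98.6 and 91.5 in stage 2. From reads pooled by stage and scaled by summed size factors, stage 2 was 49.3 times stage 1, and the 95% exact interval, 29.2 to 90.7, covers counting error only. Its later levels were low and scattered, from 43.2 in stage 3 replicate 3 to 122 in stage 5 replicate 1.

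Ro04_G36856 had 0.319 and 7.42 normalised counts in stage 1 replicates 1 and 2 and no read in replicate 3, where a floor of 3 reads allows up to 0.993. These came from 6 reads in all. It stood at 344, 276 and 286 in stage 2, at 303, 323 and 291 in stage 3, at 232 and 236 in stage 4, and at 232, 185 and 136 in stage 5. The ratio of stage 2 to stage 1 was 117 from the stage means and 350 from pooled reads (95% exact interval 161 to 955). This interval covers counting error only and takes 1 rate for the 3 stage 1 libraries. Of the stage 1 reads, all but 1 came from replicate 2, the shallowest library. That rate was therefore not shared, and the interval, which leaves out 117, is too narrow. Ro04_G36856 had the widest later range of the list, 0.699, and its stage 5 libraries were all below those of stages 2 and 3. Stage 5 replicate 1 and stage 4 replicate 1, both at 232, lay less than 1 read apart.

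**Figure D2:**
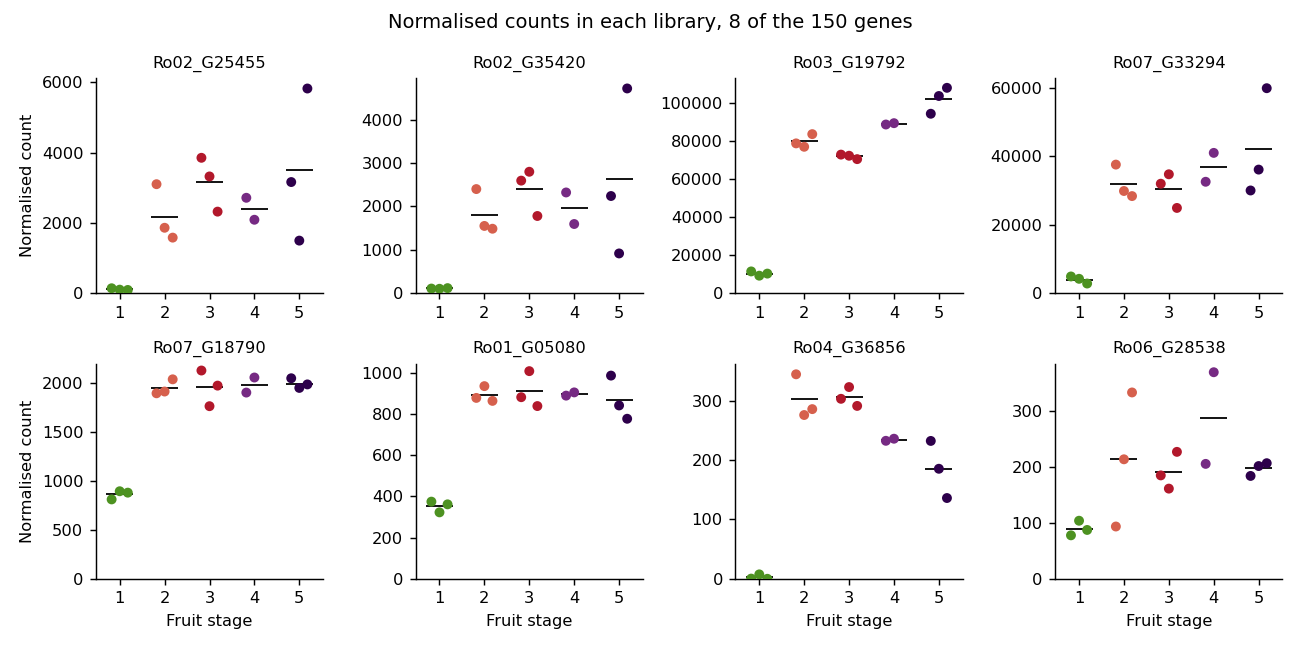
Each panel shows 1 gene, with its normalised count in each library as a point and the stage mean as a line (linear y axes from 0), by fruit stage. Ro07_G18790 and Ro01_G05080 have nearly level means after stage 2, Ro02_G25455 and Ro02_G35420 have stage 5 libraries far apart, and Ro06_G28538 has 1 stage 2 library at 93.6, among its stage 1 values.

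After stage 2 the deposited values of the list moved little, with slightly higher means in stage 3 than in stage 2 in 112 of 150 genes. That count was not made over all tested genes, and its direction depended on the scaling, as given below. On the log2(mean + 10) scale the median gene moved by 0.21 into stage 3, by -0.01 into stage 4 and by 0.01 into stage 5. Medians over all tested genes were -0.07, -0.0046 and 0 for these steps. The median range over stages 2 to 5 was 0.45 in the list, where the rule allowed 0.7, beside 0.97 over all tested genes. Stage 2 held the lowest later mean of 78 genes and the highest of 15. Stage 5 held the highest later mean of 59 genes, stage 3 that of 39 and stage 4 that of 37. Means rose at each of the 3 later steps in 17 genes and fell at each in 4.

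The steadiest gene was Ro07_G18790. It had 812, 895 and 881 normalised counts in stage 1 and 1897, 1915 and 2040 in stage 2. Stage 3 libraries held 2130, 1765 and 1975, those of stage 4 held 1904 and 2058, and those of stage 5 held 2051, 1952 and 1988, and the range of the stage means was 0.034. Ro01_G05080 was next, at 374, 322 and 361 in stage 1 and at 877, 934 and 863 in stage 2. Stage 3 averaged 908 ± 88.0, stage 4 averaged 896 ± 11.1 and stage 5 averaged 867 ± 107 (SD). In both genes the later stages overlapped and every later library was above every stage 1 library.

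At the other end of the list, some genes drifted by nearly the whole allowance. Ro05_G30716 held 382 ± 52.5 normalised counts in stage 2 and reached 622 ± 73.0 in stage 5 (SD, 3 libraries each), and its libraries of these 2 stages did not overlap, 338 to 440 against 577 to 706. Ro05_G11047 went from 903 ± 187 to 1459 ± 250, also without overlap. The largest falls were in Ro04_G36856, given above, and in Ro06_G16628, which went from 326 ± 34.3 in stage 2 to 201 ± 7.54 in stage 5. All 3 stage 5 libraries of Ro06_G16628, at 193, 207 and 204, were below its 2 stage 4 libraries, at 302 and 257.

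A limma F test over stages 2 to 5 called 40 of the 150 genes at an adjusted p below 0.05, where it called 71.1% of all tested genes. The rule had used the same means, so nothing is read from the difference. Of the 40, 29 had a higher mean in stage 5 than in stage 2 and 11 a lower one. Their median range was 0.58, beside 0.39 for the others. The count fell to 23 without stage 2 replicate 3, beside 12094 of all tested genes. It lay between 29 and 48 without any other single library of stages 1, 2, 3 or 5, beside 12434 to 13790.

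The narrow band of later levels depended on the scaling, and the deposited one divides each library's reads by 1 size factor. The summed normalised counts of the 150 genes were 125603 ± 2346 in stage 1 and 496255 ± 4814 in stage 2 (SD over 3 libraries each). Stage 3 summed to 542370 ± 12806 (n = 3), stage 4 to 561101 ± 14839 (n = 2) and stage 5 to 567241 ± 24781 (n = 3). As a share of each library the genes took 1.12%, 1.14% and 1.06% in stage 1 and 3.84%, 3.43% and 3.74% in stage 2. The share was then 2.70%, 2.52% and 2.65% in stage 3, 2.39% and 2.24% in stage 4, and 1.93%, 2.11% and 2.14% in stage 5. All 8 libraries of stages 3 to 5 summed to more than any stage 2 library, with 528732 as their lowest and 501796 as the highest of stage 2. The share went the other way, to 0.561 of its stage 2 value in stage 5, and the libraries of stages 1, 2 and 5 did not overlap in share. Total normalised counts per library grew over the same stages, from between 11223354 and 11645273 in stage 1 to between 27313419 and 27937080 in stage 5.

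**Figure D3:**
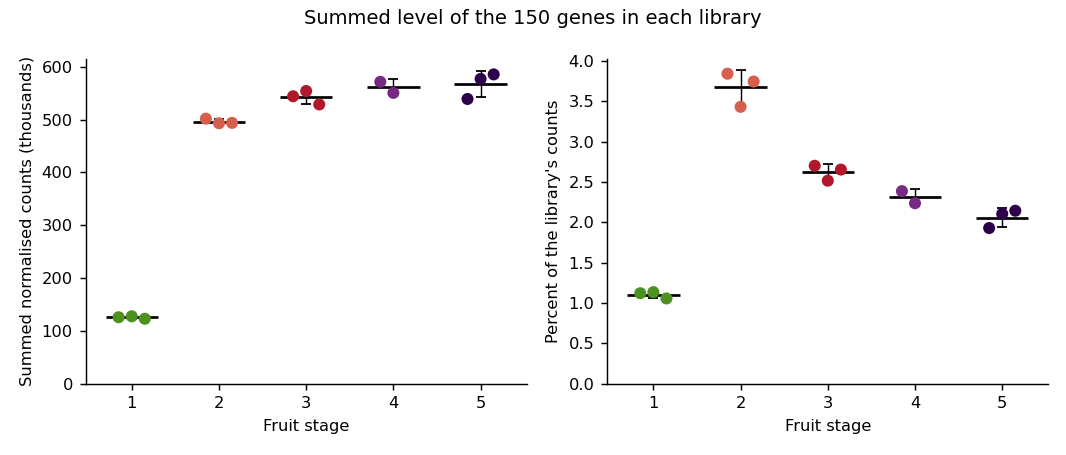
Points are libraries, lines are stage means and error bars 1 SD, by fruit stage; the left panel sums the normalised counts of the 150 genes and the right panel gives them as a percentage of all counts of the library. The left panel climbs steeply to stage 2 and a little further after it, and the right panel peaks in stage 2 at 3.43% to 3.84% and declines to 1.93% to 2.14% in stage 5.

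The rise at stage 2 had the same direction under each scaling run, and the later course did not. All 150 genes were higher in stage 2 than in stage 1 as deposited, with quantile-normalised values and when every library was scaled to one read total. The median difference was 1.71 as deposited, 2.14 with quantile-normalised values and 1.47 with equal totals, and the median over all tested genes was -0.05, 0.12 and -0.28 in the same order. As deposited the rule required a difference of at least 1. Equal totals lowered the smallest only from 1.01 to 0.77, so the direction was fixed by the choice there too. Genes higher in stage 5 than in stage 2 numbered 107 of 150 (71.3%) as deposited, beside 45.5% of all tested genes, but 43 after quantile normalization and 0 with equal totals. The 0 follows from the rule, which held any rise from stage 2 to stage 5 at 0.7 or less. Equal totals moved the median difference of the 150 from 0.16 to -0.85 and their highest from 0.69 to -0.32. Over all tested genes the median went from -0.10 to -0.88 with equal totals, so this fall was not particular to the list. After quantile normalization the medians were -0.26 in the list and -0.01 over all tested genes. With equal totals 144 genes had their highest later mean in stage 2, 131 remained above stage 1 in stage 5, and 32 kept a range of at most 0.7. The 144 largely follow from the same change of scaling. After quantile normalization these numbers were 89, 145 and 99.

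**Figure D4:**
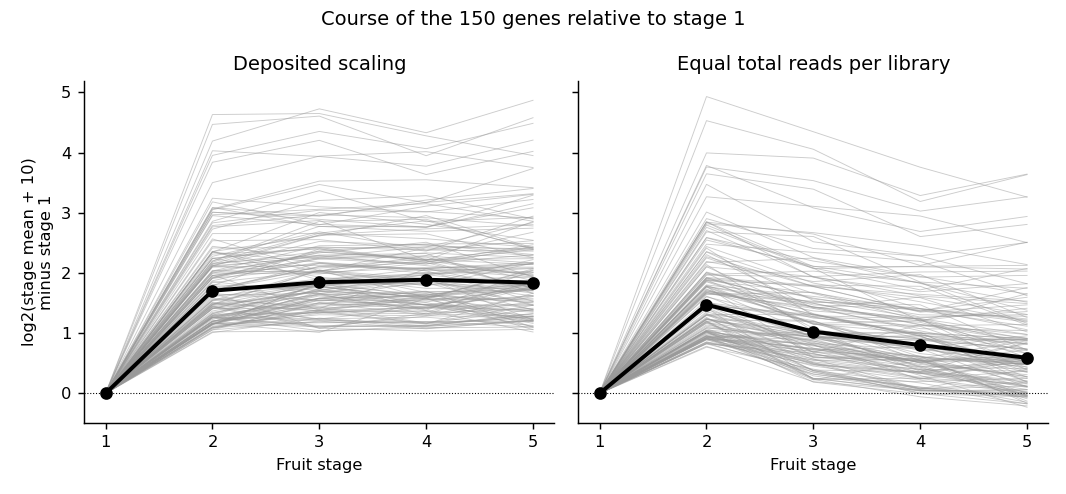
Grey lines are the 150 genes and the black line their median, as log2(stage mean + 10) minus the stage 1 value, by fruit stage, under the deposited scaling (left) and with equal total reads per library (right). On the left the median is nearly level after stage 2; on the right it peaks at 1.47 in stage 2 and declines through stage 5.

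Replicates separated stage 1 from the later stages in nearly every gene of the list. Every stage 2 library was above every stage 1 library in 149 of 150 genes, where 24.1% of all tested genes met this. This was not particular to the list. Of the 1186 genes with a like rise at stage 2 but a later range above 0.7, 1094 met it too. All 11 libraries of stages 2 to 5 were above all 3 stage 1 libraries in 149 genes, where 14.9% of all tested genes did. By limma all 150 genes were called upwards from stage 1 to stage 2, where 18.6% of all tested genes were. These counts use the contrast that chose the genes and are given as a description. The exception was Ro06_G28538, with 77.8, 104 and 87.4 normalised counts in stage 1 and 93.6, 214 and 334 in stage 2. Stage 2 replicate 1 lay within its stage 1 values, and the other 2 stage 2 libraries were above them.

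Spread within stages was modest. Averaged over the 5 stages, the within-stage SD on the log2(value + 1) scale had a median of 0.20 over the 150 genes and of 0.27 over all tested genes. By stage the list's median SD was 0.21, 0.16, 0.17, 0.10 and 0.23 in stages 1 to 5, so stage 5 was the most variable and stage 4, with 2 libraries, the least. The largest spreads were in Ro05_G21770, at 302, 197 and 160 normalised counts in stage 3 and 420, 122 and 134 in stage 5, and in Ro03_G15664, at 266 and 99.4 in stage 4. Both genes were in the low part of the list, with stage 2 means of 140 and 127.

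Some libraries lay slightly to one side for the list. The median deviation of the 150 genes from their stage mean lay between -0.05 and 0.05 (log2) in all 14 libraries, and that of all tested genes between -0.03 and 0.02. The most one-sided was stage 4, where replicate 1 was above replicate 2 in 101 of 150 genes (67.3%), beside 42.9% of all tested genes. Stage 3 replicate 2 was above its stage mean in 93 genes and stage 1 replicate 2 in 86. These 3 libraries were shallow, with 9897285, 8597118 and 7576338 reads, against 29226270 in stage 4 replicate 2. Other shallow libraries were nearer to their stage mean. Stage 2 replicate 2, with 8601064 reads, was above it in 84 genes, stage 5 replicate 2, with 9913885, in 75, and stage 3 replicate 3, with 10610577, in 71. The part of depth in these small deviations was not tested.

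The choice was then repeated with each library left out in turn, and the chosen genes were read in the library that had no part in choosing them. With stage 1 replicate 1 left out, 138 of the 150 genes chosen were lower in it than in every later library (92%), and with replicates 2 and 3 left out this held for 146 of 148 and 150 of 150. Over all tested genes the share was 21.5% to 22.4%. With a later library left out, 99.3% to 100% of the chosen genes were higher in it than in every stage 1 library. Over all tested genes 32.7% to 39.1% were. In each case the choice had used all other libraries of the comparison and required a difference of at least 1. The outcome was thus largely set by the choice, which all tested genes had not passed, and it is a description.

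The left-out libraries were also read against the limits of the rule itself. When a left-out library stood alone for its stage, the score stayed at or above 1 in 117 of 150 genes for stage 1 replicate 1 (78%), in 132 of 148 for stage 1 replicate 2 and in 135 of 150 for stage 1 replicate 3. For the later libraries it did so in 89.3% to 98% of the chosen genes. In the same reading, the range stayed at or under 0.7 in 112 of 150 genes for stage 2 replicate 1, in 99 of 150 for stage 5 replicate 3 and in 106 of 140 for stage 5 replicate 2. For the other later libraries it did so in 115 to 129 genes. A single library has a larger error than a stage mean, which these counts include. Neither limit was read this way over all tested genes, so no background share stands beside these counts. The lists so chosen shared 125 to 145 genes with the full list, and 75 of the 150 genes were chosen whichever library was left out. Since replicates 2 and 3 share a title code, both were also left out together, which was added once the data had been seen. Both lay on the chosen side in 149 of 150 genes for stage 1 and in 143 of 150 for stage 2. For stages 3 and 5 they did so in 133 of 133 and 134 of 134. Over all tested genes the shares were 18.9%, 28.3%, 33.0% and 35.0% for stages 1, 2, 3 and 5. The same limit holds here, since replicate 1 of the stage and all other stages had served the choice.

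**Figure D5:**
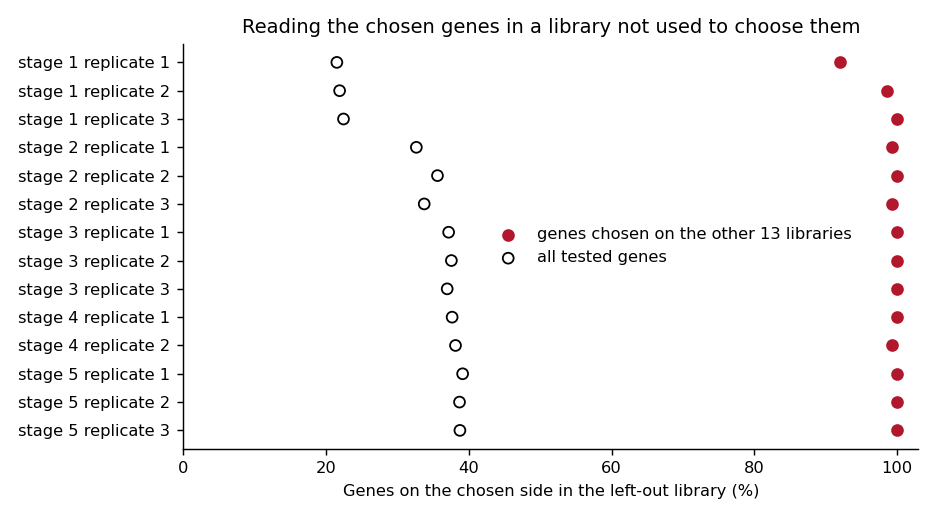
For each of the 14 libraries, filled points give the percentage of genes chosen on the other 13 libraries that lay on the chosen side in the left-out one, which is below every later library for stage 1 and above every stage 1 library for stages 2 to 5. Open points give the same over all tested genes; the filled points lie at 92% to 100% and the open ones at 21.5% to 39.1%.

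Most genes with a higher level in stage 2 had means over 0.7 apart in stages 2 to 5. Of 11941 genes with a stage 2 mean of at least 100, 1380 were higher by at least 1 in stage 2 than in stage 1, and the 150 genes made up 10.9% of these. A later range above 0.7 set aside 1186, of which 398 peaked in stage 2 and 384 in stage 5, with 117 highest in stage 3 and 287 in stage 4. In 788 of the 1186 the highest mean thus came after stage 2. A further 43 were steady but dipped to less than 1 above stage 1 in some later stage, and 1 fell to the limit of 150. The size of the stage 2 rise was close in both sets, with a median of 1.71 in the list and 1.68 in the 1186. The 1186 had a median stage 1 mean of 237 and a median within-stage SD of 0.28.

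At the edges of the choice, genes inside and outside were alike. The last gene kept, Ro01_G19618, had a score of 1.01, the gene beyond the limit, Ro05_G07413, one of 1.0043, and the nearest gene under the threshold, Ro02_G13749, one of 0.996. At the range limit Ro04_G36856 was inside at 0.699 and Ro02_G20705 outside at 0.701. The genes outside the list whose course over the 14 libraries was most like the mean course of the 150, by Pearson's r on log2(value + 1), were Ro04_G21725 (0.995) and Ro06_G08192 (0.994). Ro04_G21725 held 225 ± 36.9 normalised counts in stage 1, 4425 ± 526 in stage 2 and 7823 ± 772 in stage 3. Ro06_G08192 went from 17.6 ± 7.51 to 4966 ± 915, and on to 10456 ± 2704 in stage 5 (SD, n = 3 each). Both exceeded the range limit. Within the list r ran from 0.737 to 0.994 with a median of 0.959, and these values share libraries and scaling with the choice. Of the 19084 tested genes outside the list, 83 had an r above that median.

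The identifiers carry 7 prefixes, Ro01 to Ro07, and the 150 genes were spread over all of them. Ro01 held 33 of the genes (22%), beside 11.6% of all tested genes, and Ro06 held 24 (16%), beside 18.8%. The other prefixes held 16 to 21 genes each. On neighbouring rows of the table stood 3 pairs. Ro06_G16628 and Ro06_G16629 held 53.1 ± 9.99 and 48.1 ± 11.6 normalised counts in stage 1 and 326 ± 34.3 and 285 ± 57.4 in stage 2 (SD, n = 3). They then parted, at 201 ± 7.54 and 328 ± 111 in stage 5. Ro01_G19618 and Ro01_G19619 went from 405 ± 79.5 and 439 ± 66.0 to 826 ± 153 and 1234 ± 182. Ro03_G08078 and Ro03_G08079 differed in level, at 133 ± 36.5 and 578 ± 90.4 in stage 2. Whether such neighbours are near-identical copies that share reads was not tested.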

How the data were processed

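The deposited table holds a normalised signal: per the submitters' processing notes the authors used Trimmomatic, HISAT2 and DESeq2, and the values are read counts divided by 1 size factor per library. For versions, read counter, genome build and annotation, the entry is "not given in the sources used here". Dividing by the smallest step of a library gave whole reads for 100% of its values (tolerance 0.01 read), so the reads could be recovered. Columns were matched by library name, and none was left over.

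The 150 genes and the lists used were chosen with earlier results of these data known. Genes reaching 10 normalised counts in at least 2 libraries (19234, all 150 among them) were fitted as log2(value + 1) by limma 3.58.1 (R 4.3.3), using a variance trend and all 14 libraries together. P-values were adjusted by the Benjamini-Hochberg method over all genes tested. The fit was tested on simulated data. On the recovered reads, edgeR 4.0.16 (quasi-likelihood) called 8965 genes between stages 1 and 2 and 13692 over stages 2 to 5, and DESeq2 1.42.0 called 9110 between stages 1 and 2, against 8233 and 13668 by limma. The stages 2 to 5 comparison was not run with DESeq2.

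Genes were named by fixed ranks on the list: the 2 most extreme by score, later mean, range, drift, stage 1 mean and spread, those at the cut, neighbours in the table and the 2 closest non-members. Ro02_G20705, just outside the range limit, and the exception in stage 2, Ro06_G28538, were also picked after their values were seen. Gene lists by name could not be used, since the identifiers carry no names.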

Additional observations from a re-analysis of the deposited data

How the results depend on the processing

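Membership depended on the range limit and the scaling. Of the 150 genes, 84 were chosen with a limit of 0.5 and 85 with a limit of 1, 64 with quantile-normalised values and 11 with equal total reads. Under the other settings, which were other pseudocounts (1 and 50), minimum stage 2 means of 50 and 200, and stage medians, 109 to 143 were, and without single libraries 125 to 145 were. Genes higher in stage 5 than in stage 2 numbered 107, 43 after quantile normalization and 0 with equal totals, the 0 being fixed by the rule as given above. The F test over stages 2 to 5 called 61 of the 150 after quantile normalization, beside 11560 of the 19234 genes tested. With equal totals it called 125 of the 150, beside 15284, so the list's share was no longer the lower one. Without single libraries of stages 1, 2, 3 or 5 it called 23 to 48, beside 12094 to 13790. Rises over all genes from stage 1 to stage 2 numbered 3568 as deposited, 43.3% of calls, 5312 (55.7%) after quantile normalization and 2354 (26.6%) with equal totals. Apart from that 0, the cause of these moves was not tested. Scores turned negative in 19 of the 150 genes with equal totals and in 5 after quantile normalization. Among the named genes these were, with equal totals, Ro07_G18790 (-0.066), Ro02_G15473 (-0.17), Ro06_G28538 (-0.13), Ro03_G08079 (-0.049) and Ro01_G19619 (-0.031), and after quantile normalization in Ro02_G15473 (-0.84). Of 380 alternative scores of the 20 named genes, 325 moved by less than the within-stage SD, 49 by more in the same direction as reported, 21 of them upwards, and 6 turned negative. Same-numbered libraries of different stages did not all deviate together (r -0.09 to 0.39, above 0.1 in 9 of 26 pairs), so the numbers were not taken to pair them. Different-numbered pairs exceeded 0.1 in 4 of 52. All 6 pairs of replicate 1 libraries of stages 1, 2, 3 and 5 did (r 0.14 to 0.39), and 3 of the 12 pairs of replicates 2 or 3. With a term for these replicate 1 libraries, added after the data were seen, 8852 genes were called from stage 1 to stage 2. Rises numbered 3967 over all tested genes and 150 of the 150. Over stages 2 to 5 this fit called 14216 genes, 59 of the 150 among them. With both libraries of a shared title code left out, also added, 120 to 132 of the 150 genes were chosen. With a replicate block by title numbers 8637 genes were called from stage 1 to stage 2. Over stages 2 to 5 it called 13997 genes, 47 of the 150 among them. By the numbers in the library names these counts were 8817, 14096 and 53. With 1 stage 4 library left out, the other was assumed to vary like the other stages. Between 149 and 150 of the genes were called upwards from stage 1 to stage 2 under every setting run, beside 2354 to 5312 rises over all genes. The rule chose the genes on this rise, so the count is a description. Depth limits the lowest levels, since 1 read was worth up to 2.76 normalised counts.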
